A study of Danio rerio with 9 samples.

Results

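Newly made RNA of mxtx2 (ENSDARG00000015906) was followed through 3 cleavage stages of the zebrafish embryo. The gene was taken by its identifier and is 1 of 8969 genes with a value in every library. Its levels were set against those of all genes and of the genes at its own level. The embryos were wild-type zebrafish of the AB strain, collected at the 128-cell, 256-cell and 512-cell stages.

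The labelled groups had 2 libraries at each stage, which the labels call technical replicates. Embryos of these groups were injected at the 1-cell stage with 4-thio-UTP (50 mM, 1 nl), a uridine analogue that is built into RNA made after the injection. The unlabelled groups had 1 library at each stage. All 9 samples share the protocol text, the biotinylation of the RNA and its purification on streptavidin beads; whether unlabelled embryos were mock-injected is not stated. Whole embryos were used, so more cells that make a transcript and more transcript made per cell cannot be told apart. Because the labelled replicates are technical, the p-values measure spread between libraries and not between clutches of embryos.

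Mxtx2 is a homeobox transcription factor of the Mix type. In zebrafish it is needed for the yolk syncytial layer, a layer of nuclei in the yolk next to the cells of the blastoderm, and for epiboly, the spreading of the blastoderm over the yolk. The maternal factor Nanog is known to activate mxtx2 in zebrafish, and the gene is known as one of the early genes that the embryo itself transcribes.

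The level of mxtx2 is given as FPKM, a fragment count scaled by transcript length and library size. In labelled RNA of the 128-cell stage mxtx2 had 10.0 FPKM in replicate 1 and 2.08 FPKM in replicate 2. At the 256-cell stage it had 229 and 27.7 FPKM, and at the 512-cell stage 574 and 84.9 FPKM. In unlabelled RNA it had 0.183, 0.0864 and 0.415 FPKM at the 128-cell, 256-cell and 512-cell stages. Every labelled library lay above every unlabelled library, and the lowest labelled value was 5.02 times the highest unlabelled one.

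**Figure D1:**
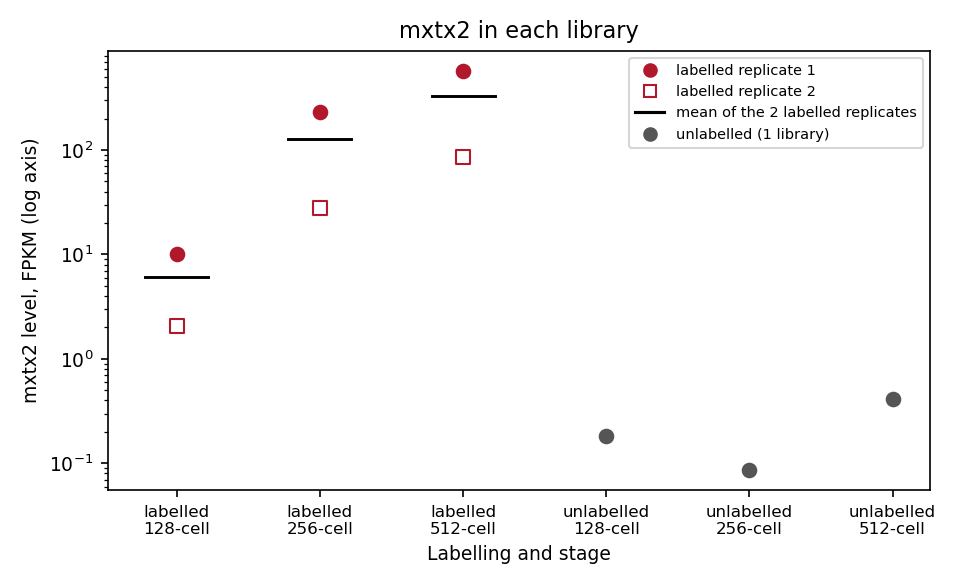
Level of mxtx2 in FPKM on a log axis, in each labelled library (filled circles replicate 1, open squares replicate 2, bars the mean) and each unlabelled library (grey circles). The 6 labelled values run between 2.08 and 574 FPKM and all lie above the 3 unlabelled values, the highest of which is 0.415 FPKM.

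Within labelled RNA the libraries of the 128-cell stage lay below those of both later stages. The 512-cell and 256-cell stages overlapped: replicate 2 of the 512-cell stage, at 84.9 FPKM, stood below replicate 1 of the 256-cell stage, at 229 FPKM. From high to low the order of the labelled libraries was replicate 1 of the 512-cell stage, replicate 1 of the 256-cell stage, replicate 2 of the 512-cell stage, replicate 2 of the 256-cell stage, and then both replicates of the 128-cell stage. The stage means were 6.05 ± 5.62 FPKM at the 128-cell stage, 129 ± 143 FPKM at the 256-cell stage and 329 ± 346 FPKM at the 512-cell stage (SD, n = 2 technical replicates each). At each of the 256-cell and 512-cell stages the SD was larger than the mean.

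The place of mxtx2 among all genes moved with its level. Counted from the highest of 8969 genes, its rank in labelled RNA was 1446 and 3804 at the 128-cell stage, 155 and 235 at the 256-cell stage, and 130 and 163 at the 512-cell stage. At the 512-cell stage 98.6% of genes lay below it in replicate 1 and 98.2% in replicate 2. In the unlabelled libraries 7.43% of genes lay below it at the 128-cell stage, 7.63% at the 256-cell stage and 32.1% at the 512-cell stage.

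The replicates differed more for mxtx2 than for most genes. Replicate 1 stood above replicate 2 by 4.82-fold at the 128-cell stage, 8.28-fold at the 256-cell stage and 6.76-fold at the 512-cell stage. The median gene with at least 1 FPKM in both replicates stood 1.61-fold, 2.101-fold and 2.0996-fold higher in replicate 1 at these stages. A larger fold was seen in 2.09% of those genes at the 128-cell stage, 1.03% at the 256-cell stage and 1.27% at the 512-cell stage. After division by size factors (the median ratio of a library's genes to their mean over libraries), the gap of mxtx2 was 2.999-fold, 3.92-fold and 3.18-fold. What makes replicate 1 higher was not tested.

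**Figure D2:**
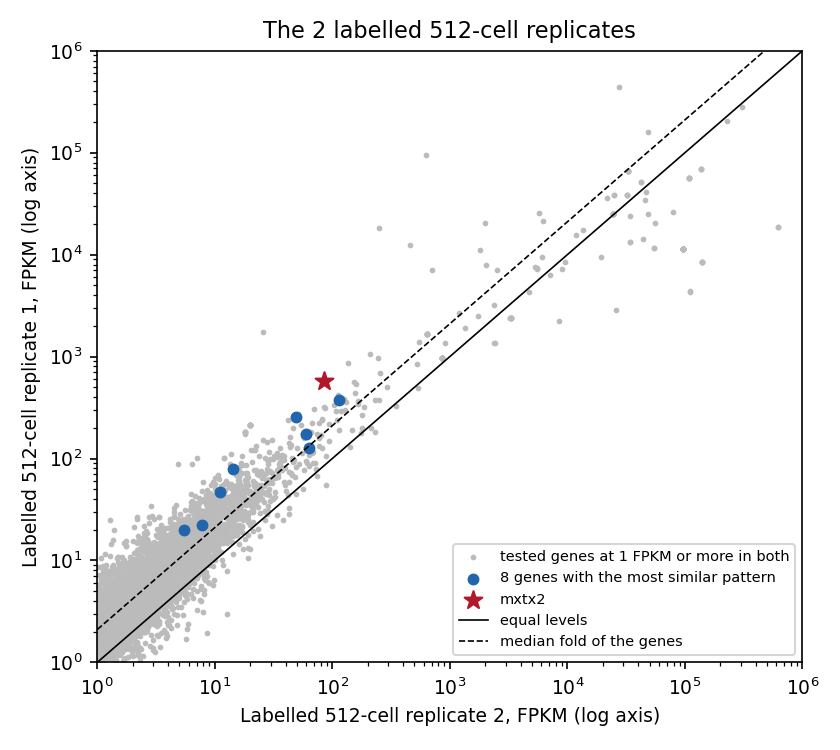
FPKM of the tested genes in labelled 512-cell replicate 1 against replicate 2, both on log axes, with the solid line at equal levels and the dashed line at the median fold. mxtx2 (star) lies 6.76-fold above the line of equal levels, against a median of 2.0996-fold; the 8 genes with the most similar pattern (blue) lie between 2.03-fold and 5.50-fold above it.

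The stages were also compared within each replicate number. For the 512-cell over the 128-cell stage the ratio of FPKM was 57.3 in replicate 1 and 40.8 in replicate 2. For the 256-cell over the 128-cell stage it was 22.9 in replicate 1 and 13.3 in replicate 2, and for the 512-cell over the 256-cell stage it was 2.50 in replicate 1 and 3.06 in replicate 2. In both replicates the ratio was larger for the step to the 256-cell stage than for the step after it. The labels do not say what libraries with the same number share.

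mxtx2 rose in labelled RNA between the 128-cell and the 512-cell stage. The fitted change was 5.25 ± 1.28 (SE) on the log2(FPKM + 1) scale, with adjusted p = 0.0379 by limma. Adding 1 to each FPKM value understates the change of low genes, so the fitted change is smaller than the ratios of FPKM above. Over all 7438 tested genes 369 rose, which is 4.96%, and 0 fell, while an unadjusted p under 0.05 was reached by 8.05% of genes as higher and 0.215% as lower. The median change was -0.11, so mxtx2 stood 5.36 above it. Of the tested genes 26 had a larger fitted change.

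In the fit reported here the rise was measured with low precision. The SE of mxtx2, 1.28, was the largest of the 369 genes called, whose median was 0.56, and it exceeded that of 99.1% of all tested genes. This SE is moderated by limma toward the trend over all genes. From the spread of mxtx2 alone it was 1.82, so the call leans on the moderation. With replicate number as a block the moderated SE was 0.299. Deviations from stage means of same-numbered libraries correlated over the 7438 genes, with r of 0.739, 0.762 and 0.660 between stages. Whether the numbers pair libraries is not known. Without replicate 2 of the labelled 128-cell stage the call was lost, with a change of 4.33 and adjusted p = 0.184, as it was without replicate 1 of the labelled 512-cell stage, with 3.88 and adjusted p = 0.162. It was lost too when all libraries were brought to 1 total of nuclear genes, with a change of 4.25 and adjusted p = 0.440; the median of all genes was then -0.80, and 1 gene was called.

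**Figure D3:**
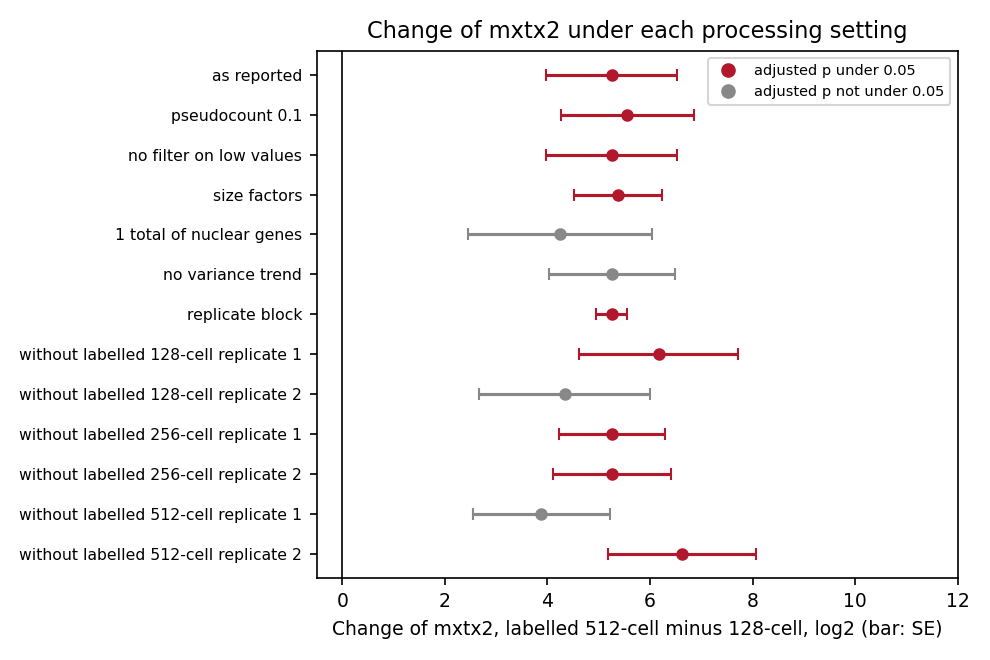
Fitted change of mxtx2 (512-cell minus 128-cell, labelled RNA, log2 scale) as reported and under each alternative, with bars of 1 SE; red points have an adjusted p under 0.05 and grey points do not. All 13 estimates are above 0, between 3.88 and 6.62, and the call is lost in 4 of the 12 alternatives.

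The rise was split into its steps. The 256-cell against 128-cell change was 3.80 ± 1.28 and the 512-cell against 256-cell change was 1.45 ± 1.28, so that 72.4% of the log2 rise was reached by the 256-cell stage. Among the 369 genes called over both steps the median share was 44.8% (quartiles 31.6% and 63.3%), and 58 of them had a larger share than mxtx2. The share of mxtx2 rests on single libraries: without labelled 256-cell replicate 1 it was 43.8%, with steps of 2.30 and 2.95, and over the fits that leave out 1 labelled library each it lay between 43.8% and 100.98%. Neither step of mxtx2 passed the test (limma, adjusted p = 0.620 for the step to the 256-cell stage and 1.00 for the step to the 512-cell stage). In both step comparisons 0 of 7438 genes, 0%, were called; an unadjusted p under 0.05 was reached by 246 higher (3.31%) and 10 lower genes (0.134%) in the step to the 256-cell stage, and by 326 higher (4.38%) and 9 lower genes (0.121%) in the step to the 512-cell stage. The unadjusted p of mxtx2 was 0.0123 for the step to the 256-cell stage and 0.280 for the step to the 512-cell stage. Both steps passed with replicate number as a block, where 234 and 361 of 7438 genes were called higher. Whether the numbers pair libraries is not known.

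Labelled RNA held much more mxtx2 than unlabelled RNA of the same stage. The ratio of the labelled mean to the unlabelled value was 33.1 at the 128-cell stage, 1488 at the 256-cell stage and 795 at the 512-cell stage. For replicate 2, the lower one, the ratios were 11.4, 321 and 205. The unlabelled values below 0.5 FPKM make these ratios imprecise, and their depth is unknown. The single unlabelled library of a stage has no replicate check.

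On the log2(FPKM + 1) scale the labelled minus unlabelled difference was 2.30 at the 128-cell stage, 6.23 at the 256-cell stage and 7.30 at the 512-cell stage, each with an SE of 1.48. This SE is moderated too, and from the spread of mxtx2 alone it was 2.23. At the 512-cell stage the difference passed the test (limma, adjusted p = 0.0235), where 286 of 7697 genes (3.72%) were higher, 17 (0.221%) were lower and 50 had a larger difference. At the 256-cell stage it did not pass (adjusted p = 0.127, 1.13% of genes higher), nor at the 128-cell stage (adjusted p = 1.00, 0.078% of genes higher). The difference in all tested genes had a median of -0.18, 0.43 and 0.73 at the 3 stages. The call at the 512-cell stage was lost without a variance trend in limma, where adjusted p = 0.0648. The 128-cell and 256-cell differences passed with replicate number as a block, where 783 and 3511 of 7697 genes were called higher. All 3 unlabelled libraries carry replicate number 1, so the block sets them against the level of labelled replicate 1, the higher one. The differences of mxtx2 were then 3.56 and 7.49, and the medians of all genes 0.14 and 0.75. It is not known whether the numbers pair libraries.

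Taken over the 3 stages together, mxtx2 was higher in labelled RNA by 5.27 ± 0.46 with adjusted p = 5.98e-28 by limma, where 913 of 7697 genes, 11.9%, were higher and 75, 0.974%, lower. In that fit the variance of every gene is taken from the trend over all genes and not from the gene. With size factors the difference of mxtx2 was 4.98 ± 0.92 (limma, adjusted p = 0.0436). From its own 3 stage differences mxtx2 had an SE of 1.52 and an SD of 2.63. The exact sign-flip permutation test over 3 stages gave p = 0.25 (two-sided), the smallest it can give. The stage differences were all above 0, while they differed from each other by more than the SE of the fit.

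Whether the labelled rise exceeded the change of unlabelled RNA was tested as a difference of differences. From the 128-cell to the 512-cell stage, labelled mxtx2 gained 4.995 ± 2.09 more than unlabelled mxtx2 did, against a median of 0.94 over all genes. This did not pass (limma, adjusted p = 0.626, unadjusted p = 0.0386). No gene of 7697, 0%, was called; an unadjusted p under 0.05 was reached by 563 higher (7.31%) and 5 lower genes (0.065%). A larger value was seen in 45 genes. With replicate number as a block the value of mxtx2 passed, where 2886 of 7697 genes were called higher. Whether the numbers pair libraries is not known.

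Genes that started at the level of mxtx2 were set beside it. Within 0.5 of its mean log2(FPKM + 1) at the labelled 128-cell stage lay 1894 other tested genes. Their median change to the 512-cell stage was -0.19, 10 of them (0.528%) rose by the test, where 4.96% of all tested genes did, and 5 had a larger change than mxtx2. mxtx2 averaged 0.228 FPKM over the 3 unlabelled libraries, against a median of 3.46 FPKM for these genes, and 2 of the 1894 were lower. At this starting level few genes had as little unlabelled signal as mxtx2. All these values are descriptions, with no test of the set. The level used to choose these genes is also the baseline of their change, so nothing is read from the share that rose.

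**Figure D4:**
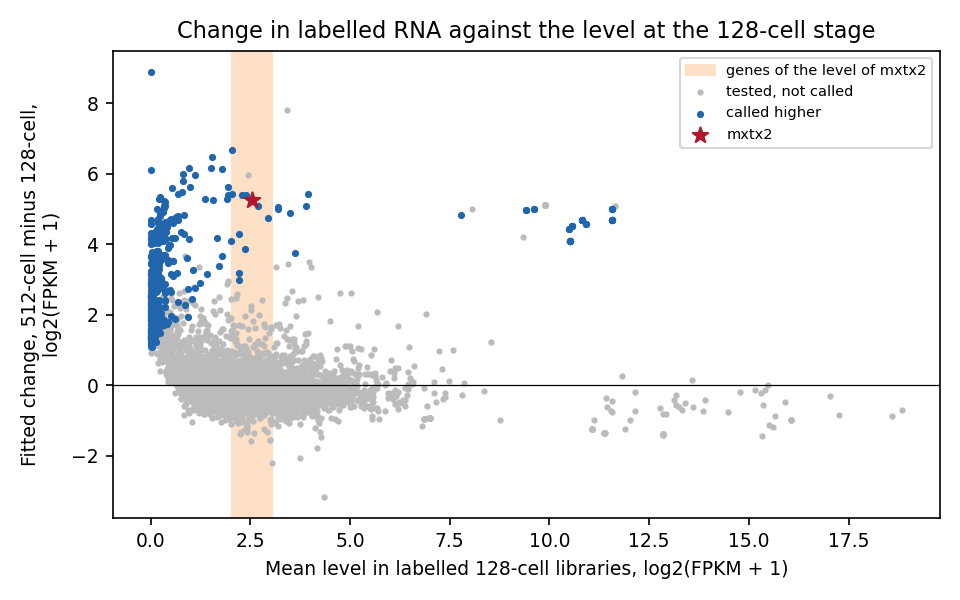
Fitted change in labelled RNA (512-cell minus 128-cell) against the mean level in the labelled 128-cell libraries, both on the log2(FPKM + 1) scale, for the tested genes; blue points were called higher and the shaded band holds genes within 0.5 of mxtx2 (star). In the band 10 of 1894 other genes were called, and mxtx2 lies at 5.25 against a median of -0.19.

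Genes that ended at the level of mxtx2 were a different group. Within 0.5 of its mean log2(FPKM + 1) at the labelled 512-cell stage lay 27 other tested genes. Of these 13 (48.1%) had risen by the test, with a median change of 3.50 and a range of -0.99 to 6.49, and 8 had a larger change. The share of all tested genes that rose was 4.96%, but genes chosen for a high level at the 512-cell stage are more often genes that rose, so nothing is read from the difference. At the 128-cell stage 9 of them were below the 6.05 FPKM of mxtx2. None of the 27 had a lower unlabelled mean than mxtx2, and their median there was 4.16 FPKM. Low unlabelled signal was not particular to mxtx2 among them. At the 128-cell, 256-cell and 512-cell stages irx7 had 0.285, 0.114 and 0.304 FPKM in unlabelled RNA. A gene without a symbol had 0.191, 0 and 0.572 FPKM there. The median also takes in genes with high unlabelled values, such as MAT2A with 183, 111 and 73.4 FPKM. The replicate gap at the 512-cell stage was 2.74 on the log2(FPKM + 1) scale for mxtx2 and 1.31 for the median of the 27, with 1 larger.

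The authors also deposited a gene table in which each stage has 1 FPKM value for labelled RNA. For mxtx2 it was 2.98 FPKM at the 128-cell stage, 119 FPKM at the 256-cell stage and 496 FPKM at the 512-cell stage, which ranked 2595, 157 and 133 of 9436 genes. These values were 0.493, 0.927 and 1.51 times the means of the 2 libraries, while the median gene had 0.671, 1.08 and 1.49 times. The stage values and the libraries are therefore on different scales, and how the stage values were scaled is not stated. On the deposited stage values mxtx2 was 166-fold higher at the 512-cell than at the 128-cell stage, against 54.4-fold from the library means. The median gene was 2.095-fold higher on the stage values, and 157 of 7735 genes had a larger ratio than mxtx2. These 7735 genes had a value above 0 at both stages and at least 1 FPKM at either. Genes listed at 0 at either stage were left out, so the count of larger ratios may be too low. There is no replicate, and so no test, behind these ratios.

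In the deposited transcript table, 1 of 11530 transcripts, ENSDART00000006505, carried the same 3 stage values as mxtx2. The files do not pair transcripts with genes. The match rests on equal values within a relative tolerance of 1e-09, and 1 gene carries these values. Other isoforms of mxtx2 were not analysed here.

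The genes whose pattern was most like that of mxtx2 were found by Pearson's r of log2(FPKM + 1) over the 9 libraries, among 5020 genes with a gene symbol of the ordinary kind and a mean of at least 1 FPKM at the labelled 512-cell stage. The 8 with the highest r were NFE2 (0.994), dkk1b (0.994), klf17 (0.991), wnt11f2 (0.989), GADD45B (0.988), aplnrb (0.987), ndr1 (0.986) and PNRC2 (0.984); symbols are printed in the case the reference table gives. The median r was 0.446, and 49 genes were above 0.95. The 9 libraries share their scale, and labelled and unlabelled libraries stand apart, so r is high for any gene that separates them. Within the 6 labelled libraries the r of the 8 genes lay between 0.976 and 0.999; these libraries were used to choose the genes, so neither this r nor their rises below are independent of the choice. With size factors the same 8 genes came first, in another order.

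**Figure D5:**
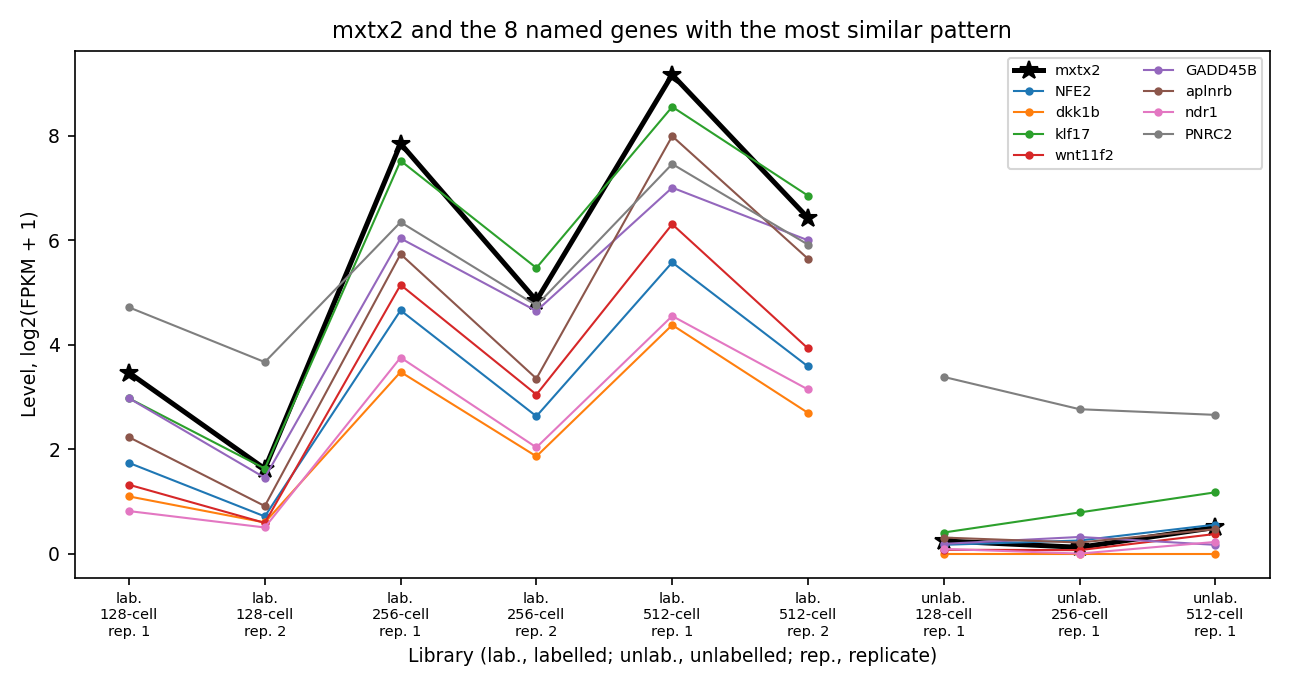
Level on the log2(FPKM + 1) scale in each of the 9 libraries for mxtx2 (black) and the 8 genes with the highest r to it; lines only join the points of 1 gene. In labelled RNA each of the 9 genes is higher in replicate 1 than in replicate 2 at every stage, and in unlabelled RNA all but klf17 and PNRC2 lie below 1.

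Among these, klf17 encodes a Krüppel-like transcription factor of the outer enveloping layer. It had 375 and 114 FPKM in labelled 512-cell libraries, against 6.84 and 2.09 FPKM in labelled 128-cell libraries, and rose by 5.40 ± 1.07 (limma, adjusted p = 0.0134). Its level was thus below mxtx2 in replicate 1 and above it in replicate 2 at the 512-cell stage, per length. The apelin receptor gene aplnrb had 253 and 49.0 FPKM in labelled 512-cell libraries, against 3.68 and 0.879 FPKM in labelled 128-cell libraries. It rose by 5.25 ± 1.07 (limma, adjusted p = 0.0154). With 1 labelled 128-cell library below 1 FPKM, aplnrb passed the filter only with the later stages, so its call gives no support. Without labelled 128-cell replicate 2 the adjusted p was 0.104 for klf17 and 0.0575 for aplnrb.

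The Wnt ligand gene wnt11f2 is known for cell movements of gastrulation. It had 78.1 and 14.2 FPKM in labelled 512-cell libraries, against 1.49 and 0.503 FPKM in labelled 128-cell libraries. Its rise was 4.16 ± 0.95 (limma, adjusted p = 0.0269). As for aplnrb, wnt11f2 passed the filter only with the later stages, so its call gives no support. GADD45B, of a family induced by growth arrest and DNA damage, rose by 4.29 ± 0.93 (adjusted p = 0.0209), with 127 and 62.9 FPKM in labelled 512-cell libraries, against 6.86 and 1.74 FPKM in labelled 128-cell libraries. Both calls were lost when replicate 2 of the labelled 128-cell stage or replicate 1 of the labelled 512-cell stage was left out. The adjusted p was then 0.0860 and 0.0853 for wnt11f2, and 0.352 and 0.0786 for GADD45B.

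NFE2, a leucine zipper factor known for its part in blood lineages, had 46.6 and 10.98 FPKM in labelled 512-cell libraries, against 2.33 and 0.638 FPKM in labelled 128-cell libraries. Its change of 3.35 ± 0.89 did not pass (limma, adjusted p = 0.0588). The Wnt inhibitor gene dkk1b, expressed in the dorsal organizer, had 19.8 and 5.47 FPKM in labelled 512-cell libraries, against 1.14 and 0.511 FPKM in labelled 128-cell libraries, and was listed at 0 in all 3 unlabelled libraries. Its change of 2.69 ± 0.74 did not pass (adjusted p = 0.0695). PNRC2, in human cells a coactivator of nuclear receptors, had 9.42, 5.79 and 5.30 FPKM in unlabelled RNA, well above mxtx2, and its change of 2.50 ± 1.01 did not pass (adjusted p = 0.393). A high r did not mean the same amount of change: the changes of these 8 genes lay between 2.50 and 5.40.

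The matched maternal factors of an upstream list were present in every library. Of these only nanog is described here as an activator of mxtx2. The upstream list held 7 maternal factors, of which 6 were matched to the table. In labelled RNA between the 512-cell and 128-cell stages 0 of 6 passed (limma), and 0 reached an unadjusted p under 0.05. Of all tested genes 4.96% rose, and 8.05% were higher at an unadjusted p under 0.05. With 6 genes a count of 0 is near these shares, so nothing is read from it. The median change of the 6 was -0.02 against -0.11 for all genes. nanog, the homeobox factor that activates mxtx2, had 503 and 290 FPKM in labelled 512-cell libraries, against 210 and 172 FPKM in labelled 128-cell libraries, a change of 1.00 ± 1.05 that was -0.09 with 1 total of nuclear genes. In unlabelled RNA nanog had 225, 118 and 79.7 FPKM at the 128-cell, 256-cell and 512-cell stages. foxh1, the partner of Smad proteins in Nodal signalling, had a change of 1.33 ± 0.92; pou5f3, sox19b, SMAD2 and ctnnb2 had between 2.36 and 55.6 FPKM in the labelled libraries. With replicate number as a block nanog and foxh1 passed (limma, adjusted p = 0.0382 and 0.00374), where 726 of 7438 genes were called higher. Whether the numbers pair libraries is not known. With nanog present in unlabelled RNA, labelled and carried-over nanog RNA cannot be told apart.

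Of 4 Mix-type homeobox genes listed, mxtx2 and mixl1 were matched. mixl1, a Mix-type factor of mesoderm and endoderm, had 2.62 and 0.733 FPKM in labelled 512-cell libraries, against 0.308 and 0.0613 FPKM in labelled 128-cell libraries. In unlabelled RNA it had 0.162, 0.0277 and 0.00911 FPKM, and it was below the filter for the test. With size factors mixl1 passed the filter, but only through the labelled 512-cell libraries, where it was highest. It was then called higher, as were 541 of 7063 genes. Because the filter let it in by its high stage, nothing is read from that call. Per length, the ratio of mxtx2 to mixl1 in labelled RNA was 32.6 and 33.9 at the 128-cell stage, 439 and 435 at the 256-cell stage, and 219 and 116 at the 512-cell stage. At the labelled 256-cell stage mixl1 had only 0.522 and 0.0637 FPKM. Its low values make the 128-cell and 256-cell ratios imprecise. In unlabelled RNA, where both genes were below 0.5 FPKM, the ratio lay between 1.13 and 45.5.

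Nodal signals pattern the mesoderm and endoderm of the blastula margin, next to the yolk syncytial layer. Of 20 genes of Nodal signalling and endoderm listed, 10 were matched and 8 tested; 4 rose in labelled RNA between the 128-cell and 512-cell stages, where 4.96% of all tested genes rose. In the list 0 fell, and the median change was 2.62 against -0.11 for all genes. The ligand gene ndr1 rose by 3.19 ± 0.73 (limma, adjusted p = 0.0271), with 22.4 and 7.83 FPKM in labelled 512-cell libraries, against 0.758 and 0.414 FPKM in labelled 128-cell libraries. The Nodal inhibitor gene lft2 rose by 4.18 ± 0.97 (adjusted p = 0.0295), while lft1, of the same family, had a change of 3.002 ± 0.85 and did not pass (adjusted p = 0.0789). The notochord homeobox gene noto rose by 4.39 ± 0.77 (adjusted p = 0.00719) and the endoderm forkhead gene foxa3 by 2.23 ± 0.51 (adjusted p = 0.0270). foxa3 reached 1 FPKM only in the labelled 512-cell libraries, with 7.95 and 1.56 FPKM. It was thus tested only because of its high stage, so its call, 1 of the 4, gives no support. The calls of ndr1, lft2 and noto have a like limit. These genes were below 1 FPKM in both labelled 128-cell libraries, lft2 with 0.993 and 0.164 FPKM and noto with 0.189 and 0.251 FPKM. They passed the filter only through the later stages, so nothing is read from the 4 calls against the share of all genes. The co-receptor gene tdgf1 had a change of 1.74 ± 0.79 and did not pass (adjusted p = 0.582), and neither did foxh1 or the ligand gene gdf3. With size factors 7 of 9 tested members of the list were called higher, where 541 of 7063 genes were. With a pseudocount of 0.1 it was 5 of 8, where 384 of 7438 genes were. The filter limit above holds for both counts, and mixl1, set aside above, is among the 7, so nothing is read from them. Without labelled 512-cell replicate 1 or without a variance trend the list had 1 call, and with 1 total of nuclear genes it had 0. The call of ndr1 was also lost without labelled 128-cell replicate 2 (adjusted p = 0.112).

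Lists of marker genes of the early embryo were read in the same libraries. The enveloping layer, the outer sheet of cells, had 5 of 10 listed markers matched and 4 tested, and 3 rose: grhl3 by 6.17 ± 0.87 (limma, adjusted p = 0.00376), GATA3 by 4.80 ± 0.74 (adjusted p = 0.00453) and klf17, above. Among all tested genes 4.96% rose. GATA3 was below 1 FPKM in both labelled 128-cell libraries, with 0.710 and 0.502 FPKM. There grhl3 had 0.744 and 1.18 FPKM. Both genes passed the filter only with the later stages, so nothing is read from the 3 calls against the share of all genes. The fourth marker, TP63, had 1.33 and 0.585 FPKM in labelled 512-cell libraries, against 2.87 and 0.568 FPKM in labelled 128-cell libraries, a change of -0.36 ± 0.50 that did not pass (adjusted p = 1.00). The 5 markers summed to 678 and 228 FPKM in labelled 512-cell libraries, against 11.2 and 4.34 FPKM in labelled 128-cell libraries, and to between 2.77 and 5.09 FPKM in unlabelled RNA; cldne was at 0 in both labelled 128-cell libraries. Most of the labelled 512-cell sums came from klf17 and grhl3, the second with 237 and 81.7 FPKM there. The 3 calls were lost with 1 total of nuclear genes. The 5 germ plasm markers summed to 116 and 34.9 FPKM in labelled 512-cell libraries, against 124 and 46.1 FPKM in labelled 128-cell libraries, and the 5 maternal markers to 161 and 55.5 FPKM, against 237 and 75.5 FPKM. Of these 10 markers 0 passed (limma), and 0 reached an unadjusted p under 0.05. Of all tested genes 4.96% rose, and 8.05% were higher at an unadjusted p under 0.05, so nothing is read from these counts. Of 17 genes listed for the yolk syncytial layer, mxtx2 alone was matched, so its label could not be set beside other markers of that layer; the part of any cell type in the change of mxtx2 was not tested.

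In the RefSeq gene order of the assembly GRCz12tu, which is not the build of the files and is used here for names and order only, mxtx2 lies next to bms1. bms1 encodes a ribosome biogenesis factor and had 24.996 and 7.46 FPKM in labelled 512-cell libraries, against 17.5 and 8.37 FPKM in labelled 128-cell libraries, a change of 0.17 ± 0.91 (limma, adjusted p = 1.00). On the other side lies a gene with a clone name, with a change of 0.09 ± 0.36 (adjusted p = 1.00). Neither neighbour passed the test that mxtx2 passed, though a difference between them was not tested.

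The 9 libraries had between 4035 and 7416 genes at 1 FPKM or more, the fewest in unlabelled 512-cell RNA and the most in labelled 512-cell replicate 1. Size factors lay between 1.46 and 1.699 in labelled replicate 1 of the 3 stages and between 0.725 and 0.911 in labelled replicate 2. In unlabelled RNA they were 1.46, 0.774 and 0.466 at the 128-cell, 256-cell and 512-cell stages.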

How the data were processed

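RNA was sequenced in 9 libraries. The deposited values are FPKM per gene and library, with FPKM per stage for genes and transcripts, per the file headers; per the submitters' processing notes they were made with CASAVA 1.7, TopHat 1.3.3 and Cufflinks 2.0.2 on Zv9. Amplified cDNA went through 15 PCR cycles, per the labels' protocols. Annotation version, strand handling and scaling are not given in the sources used here. Read counts were not used here: low values showed no common step that would reveal whole reads, so depth is unknown and no counting interval is given.

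Tests took genes that reached 1 FPKM in 2 or more libraries of the fit, on log2(FPKM + 1), with limma 3.58.1 in R 4.3.3 (moderated variances with a trend, two-sided, Benjamini-Hochberg over all tested genes, threshold 0.05), checked on simulated data. The simulated libraries varied independently, so the check does not cover the correlated deviations of same-numbered libraries. Stage comparisons used the 6 labelled libraries, 7438 genes. Comparisons with unlabelled RNA used all 9 libraries, 7697 genes; over 3 stages, labelled means and stage as a block. A lone unlabelled library is assumed to vary like labelled replicates. Alternatives were a pseudocount of 0.1, no filter, size factors, 1 total of nuclear genes, no variance trend, replicate number as a block, and leaving out each library.

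Genes named are the 8 with the highest r to mxtx2 and members of the lists that passed a test or that a small count refers to; mixl1, the genes beside mxtx2 and list members below the threshold were named after their values were seen. The gene, the lists and the tests were chosen with earlier results of these data known. Symbols were found for 7028 of 8969 gene IDs (78.4%). No other gene had the values of mxtx2 in all libraries. Genome coordinates and sequences were not used here.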

Additional observations from a re-analysis of the deposited data

How the results depend on the processing

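Of 99 alternative values of mxtx2, 78 kept direction and side of the threshold. For the 512-cell against 128-cell change, the call was lost with 1 total of nuclear genes (4.25) and without a variance trend (5.25, adjusted p = 0.0928), and leaving out 1 library gave 3.88 to 6.62. The step to the 256-cell stage ranged over 2.30 to 5.31 and passed without labelled 256-cell replicate 2 (adjusted p = 0.0290). The step to the 512-cell stage ranged over -0.0517 to 2.95 and reversed to -0.0517 without that library. The labelled minus unlabelled difference at the 512-cell stage lost its call without a variance trend (7.30). At the 256-cell stage it passed with a pseudocount of 0.1 (8.74, limma, adjusted p = 0.0103) and without any 1 labelled library (4.72 to 7.73). Leaving out a library of another stage cannot change the 256-cell difference, only the spread that the fit assigns. Without labelled 128-cell replicate 1 the difference stayed at 6.23 and the SE moved from 1.48 to 1.25. Such passes are no further support. The difference of differences ranged over 3.62 to 6.37 and passed without labelled 256-cell replicate 2 (adjusted p = 0.0430) or 512-cell replicate 2 (adjusted p = 0.0419). nanog reversed to -0.0923 with 1 total of nuclear genes, and TP63 ranged over -1.01 to 0.292 without 1 library, above 0 without labelled 128-cell replicate 1. Their cause was not tested.

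Deviations from stage means of same-numbered libraries correlated over 7438 genes (0.739, 0.762 and 0.660 between stages); with 2 numbers and no label on what they share, whether they pair libraries is not known. With the replicate block mxtx2 passed in the step to the 256-cell stage (3.80, adjusted p = 6.82e-05), the step to the 512-cell stage (1.45, adjusted p = 0.0231), labelled minus unlabelled at the 128-cell (3.56, adjusted p = 0.000425) and 256-cell stages (7.49, adjusted p = 7.56e-07), and the difference of differences (4.995, adjusted p = 0.000279). The unlabelled libraries all carry number 1, so these labelled minus unlabelled values are taken at the level of labelled replicate 1. The 512-cell against 128-cell change was 5.25 with adjusted p = 2.63e-06. In that fit 2 of 6 upstream factors, nanog and foxh1, and 7 of 8 Nodal genes passed, where 726 of 7438 genes were higher and 99 lower.

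Counts of called genes moved by over 1.5 times. For 512-cell against 128-cell, 369 calls became 187 without a trend, 1 with 1 total of nuclear genes, 210 to 519 without 1 library and 825 with the block. For the step to the 256-cell stage, 0 became 82 with a pseudocount of 0.1, 78 with size factors, 46 without a trend, 2 to 85 without 1 library and 242 with the block. For the step to the 512-cell stage, 0 became 216 with size factors, 0 to 135 without 1 library and 382 with the block. Labelled against unlabelled over 3 stages, 988 became 1543 with 1 total of nuclear genes, 122 to 2860 without 1 library and 3178 with the block; with size factors 455 were higher and 281 lower. At the 128-cell stage 6 became 3 with no filter, 28 with 1 total of nuclear genes, 23 without a trend, 11 to 28 without 1 library and 1020 with the block. At the 256-cell stage 87 became 157 with a pseudocount of 0.1, 113 to 251 without 1 library and 3613 with the block. At the 512-cell stage 303 became 492 with a pseudocount of 0.1, 972 with size factors (685 higher and 287 lower), 156 with 1 total of nuclear genes, 179 without a trend, 246 to 665 without 1 library and 5208 with the block. For the difference of differences, 0 became 6 with a pseudocount of 0.1, 134 with size factors, 0 to 226 without 1 library and 2922 with the block.

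Depth is unknown, so values near 0 in unlabelled RNA carry no limit of detection.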
